A study of Mus musculus with 4 samples.

Results

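The 47 genes described here encode proteins that sense and mend damaged DNA. They were taken by gene symbol from a count matrix of 24421 genes and sorted into 10 repair routes by what their proteins are known to do. The set was chosen with earlier results of these data known. The cells were B16F10, a C57BL/6 mouse melanoma line that grows as a culture. They carried a lentivirus with either a short hairpin that targets Lmna, which encodes lamins A and C (shLmna, 2 libraries), or an empty vector without a hairpin (shControl, 2 libraries), and both populations had been selected with puromycin. The libraries came from bulk MARS-seq, which counts the 3′ ends of polyadenylated transcripts. The question was what a lower lamin A/C content did to the transcripts of the repair machinery in cells for which no DNA damaging treatment is listed. The shControl is an empty vector rather than a scrambled hairpin, so the presence of any hairpin and the loss of Lmna cannot be told apart. Effects of this hairpin on other transcripts, or a difference between the selected populations, cannot be told apart from that loss either. The sources used here leave unsaid if each library had its own transduction, so p-values measure only the spread between these libraries, which may be technical.

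DNA damage is met by several machineries that share parts. Double-strand breaks are bound by the MRE11-RAD50-NBN complex, which activates the kinase ATM, while single-stranded DNA at stalled forks activates ATR. Breaks are then rejoined end to end by the Ku and ligase IV route, or copied from the sister chromatid by homologous recombination with BRCA1 and BRCA2. Damaged single bases, mismatched bases and bulky lesions are cut out by the base excision, mismatch and nucleotide excision routes. Crosslinks between the strands are handled by the Fanconi anemia proteins, and topoisomerases stuck on DNA are released by the TDP enzymes. In pigment cells nucleotide excision repair is known for removing ultraviolet lesions.

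The libraries held 3262632 and 3808843 counts in shControl against 2494880 and 3657167 in shLmna. Counts of Lmna were 2826 and 2684 in shControl against 331 and 480 in shLmna, a log2 fold change of -2.61 (SE 0.142, adjusted p = 7.93e-06), so the hairpin's target was lower in both libraries that carry it. Of 7 melanocyte lineage markers, 6 had over 200 counts in every library, and of 13 markers of other cell types, 9 had no count in any library and none exceeded 13 counts. In bulk RNA, fewer cells of a type and less RNA per cell cannot be told apart. Fold changes below are shLmna against shControl on the log2 scale from edgeR's quasi-likelihood test, and p-values are adjusted by Benjamini-Hochberg over the 9150 genes with enough counts to be tested. Levels are CPM, the counts of a gene per 1000000 counts of the TMM-scaled library, and a mean ± SD is over 2 libraries. A gene passed the test at an adjusted p under 0.05. It was called if, beyond that, the log2 fold change was larger than 1 in either direction and normalized counts averaged over 5. With 2 libraries against 2, an exact permutation test of a single gene cannot go below a two-sided p of 0.333.

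For most repair genes the interval of the difference between the groups lay within a 2-fold change. Tdp2, whose enzyme frees DNA ends from trapped topoisomerase II, fell to near 0 in shLmna. The damage kinase gene Atm rose about 2.01-fold, and Ercc2, which encodes the XPD helicase of nucleotide excision repair, fell by 0.66 on the log2 scale, but neither of these 2 passed by DESeq2 or without an shLmna library. Of the 45 members with enough counts, 2 passed the test as lower and 1 as higher, against 9.74% lower and 5.48% higher among all tested genes, or 6.67% of members beside 15.2% of all genes. Tdp2 was the 1 member called lower and Atm the 1 member called higher, where 5.88% and 1.76% of all genes were called. The summed level of the 47 genes was 2577 and 2419.8 CPM in shControl and 2667 and 2526 CPM in shLmna, so the groups overlapped in the RNA they devote to these genes. The median log2 fold change was 0.05 over the tested members and 0.00 over all tested genes, with 20 members estimated lower and 25 higher. For 32 members (71.1%) the whole 95% interval lay within a 2-fold change in either direction, compared with 66.0% of all tested genes. The shLmna libraries lay wholly below the shControl libraries for 14 tested members and wholly above for 14. That is 62.2% without overlap, near the 60.1% of all tested genes. At an unadjusted p under 0.05 there were 15 members, 8 lower and 7 higher, a share of 33.3% beside 30.1% of all genes. By DESeq2 only Tdp2 passed, and by limma on the authors' batch-corrected log2 values 11 members passed as lower and 8 as higher, where 36.2% of all genes passed.

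**Figure D1:**
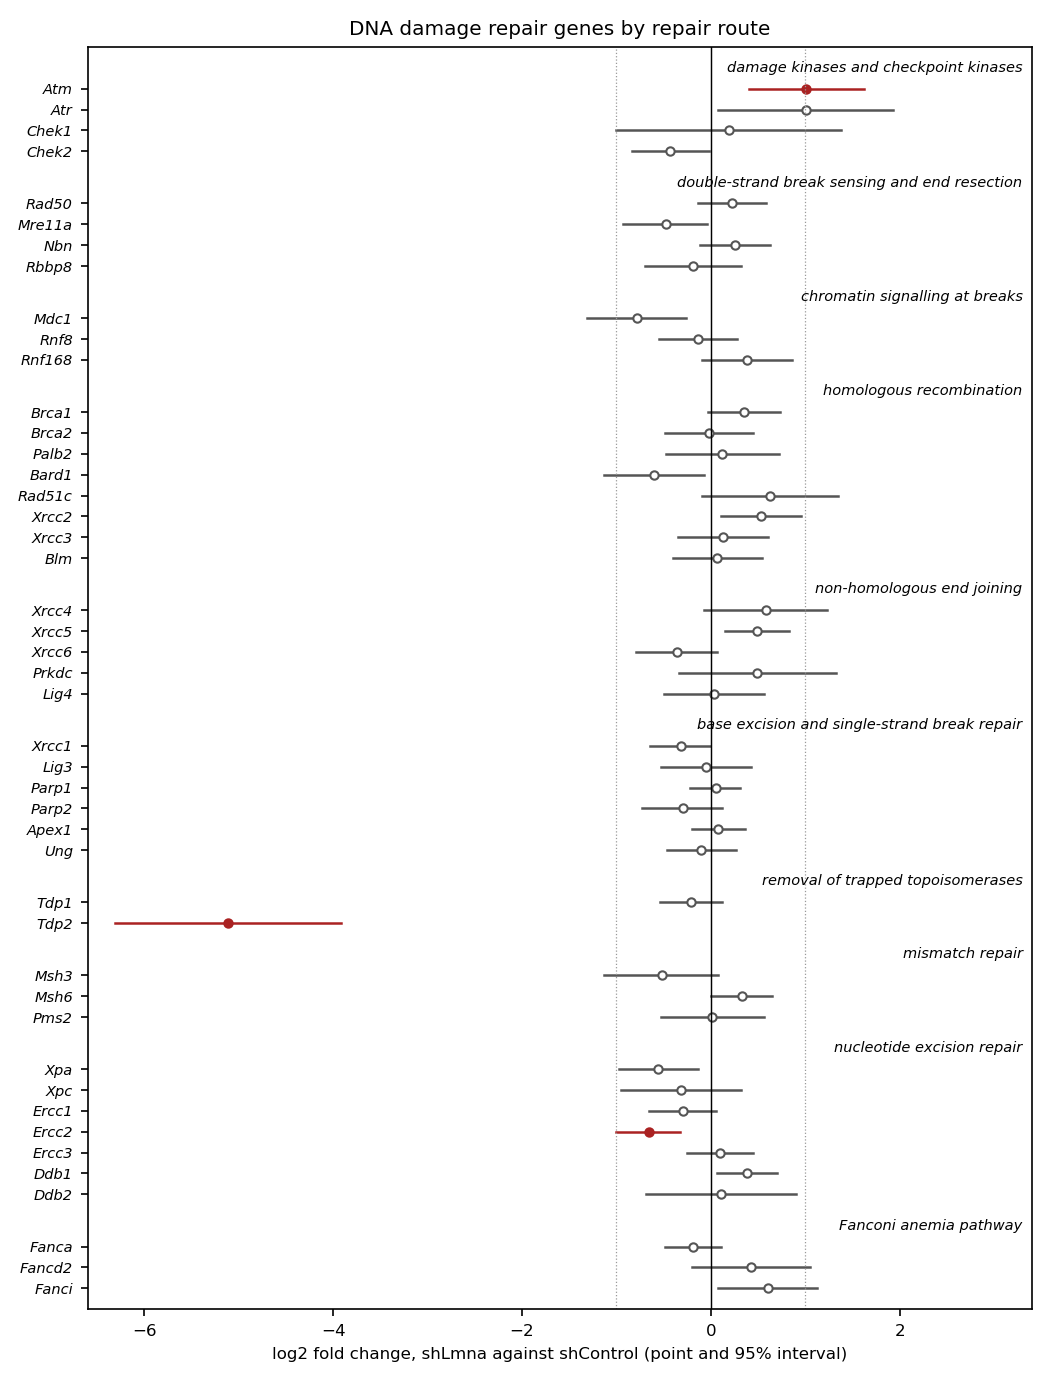
Log2 fold change (shLmna against shControl, horizontal axis) of the 45 tested repair genes, grouped by route, with 95% intervals; filled red points have an adjusted p under 0.05 and dotted lines mark a 2-fold change. Tdp2 stands alone at -5.11, Atm at 1.01 and Ercc2 at -0.66 are the other filled points, and most of the other intervals cross 0.

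Tdp2 (chr13:24831679-24842153, plus strand, mm10) encodes tyrosyl-DNA phosphodiesterase 2, which cuts the bond between a DNA end and the tyrosine of a topoisomerase II molecule stuck on it, a lesion that drugs such as etoposide produce. Tdp2 had 65 and 99 counts in the shControl libraries and 0 and 4 counts in the shLmna libraries. These are 23.3 ± 4.51 CPM against 0.545 ± 0.771 CPM, and the ranges of the groups lie far apart. The log2 fold change was -5.11 (SE 0.535, 95% interval -6.31 to -3.92, adjusted p = 2.23e-04). Taken as summed counts, 164 in shControl against 4 in shLmna, the level was 36.5-fold lower after scaling, with an exact counting interval of 14-fold to 136-fold that covers counting error only. Tdp1 encodes the companion enzyme, which acts mainly on topoisomerase I. It had 96.9 and 79.5 CPM in shControl and 77.9 and 74.1 CPM in shLmna. Its log2 fold change was -0.21 (SE 0.147, adjusted p = 0.368), so the large difference of Tdp2 was not seen for Tdp1 at this depth. The counted 3′ end of Tdp2 is 36.3% G and C, and among all tested genes up to 42% the share passing the test was 27.8%, against 10.2% both from 42% to 50% and above 50%. Only 1 of the 12 members in the low range passed, and with offsets for G and C content the log2 fold change of Tdp2 was -5.01 (adjusted p = 3.27e-04).

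The kinases that start the response were low in counts. Atm (chr9:53439149-53536740, minus strand) encodes the kinase activated at double-strand breaks. It had 32 and 62 counts in shControl against 65 and 103 in shLmna, or 9.91 and 16.6 CPM against 25.7 and 28.1 CPM. Both shLmna libraries lay above both shControl libraries, although the raw counts of shControl 2 and shLmna 1 were close. The log2 fold change was 1.01 (SE 0.271, 95% interval 0.40 to 1.62, adjusted p = 0.0331). This call was not stable. Its adjusted p was 0.168 by DESeq2, 0.0626 without shControl 1 (log2 fold change 0.70), 0.101 without shLmna 1 and 0.176 without shLmna 2.

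Atr, the kinase of stalled replication forks, had 10 and 31 counts in shControl against 32 and 40 in shLmna. Its log2 fold change was the same size, 1.01, but with an SE of 0.413 and an adjusted p of 0.134. It rested on single libraries, with 1.90 (adjusted p = 0.00650) without shControl 2 and 0.49 (0.393) without shControl 1, and without a low-count filter the adjusted p was 0.0319. Chek2, the checkpoint kinase activated by ATM, was at 57.9 and 51.1 CPM in shControl and 46.3 and 35.1 CPM in shLmna, and at -0.43 it did not pass (adjusted p = 0.145). Chek1, the kinase below ATR, had 20 counts or fewer in each library and a 95% interval from -1.0 to 1.38, which leaves a 2-fold change either way undetectable at this depth.

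Double-strand break sensing and end resection showed no member past the test. Rad50, which forms the long coiled-coil arms of the sensor, was at 64.1 and 59.4 CPM in shControl and 81.1 and 63.8 CPM in shLmna (log2 fold change 0.22, adjusted p = 0.394). Nbn, the subunit that recruits ATM, had a log2 fold change of 0.26 (adjusted p = 0.335). Mre11a, the nuclease of the complex, had 133 and 129 counts in shControl against 63 and 106 in shLmna, and its log2 fold change was -0.48 (SE 0.198, adjusted p = 0.135). For Rbbp8, whose protein CtIP starts resection, it was -0.19 (adjusted p = 0.619). All 4 intervals of this route lay within 2-fold, and 1 of the 4 genes, Mre11a, had an unadjusted p under 0.05.

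Among the proteins that mark chromatin beside a break, Mdc1, the scaffold that reads phosphorylated H2AX, came nearest to passing. Mdc1 had 68 and 90 counts in shControl against 30 and 52 in shLmna, 22.6 ± 2.15 against 13.0 ± 1.63 CPM, with no overlap between the groups. Of the 31-base words of the Mdc1 3′ end, 11.3% are shared with other genes, so its counts are less certain. Its log2 fold change was -0.78 (SE 0.236) at an adjusted p of 0.0521, which was 0.0239 without shControl 1, 0.0283 without a low-count filter and 0.393 by DESeq2. The ubiquitin ligase gene Rnf8 was at 48.9 and 50.1 CPM in shControl and 52.6 and 38.4 CPM in shLmna, with overlapping groups and a log2 fold change of -0.14 (adjusted p = 0.671). Rnf168, the ligase that acts after RNF8, had a log2 fold change of 0.38 (adjusted p = 0.256). Trp53bp1, whose protein 53BP1 steers breaks toward end joining, was too low to be tested in all 4 libraries, with 9 and 23 counts in shControl against 2 and 9 in shLmna.

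In homologous recombination none of the 8 tested members passed by edgeR, 2 had an unadjusted p under 0.05, and their log2 fold changes ran from -0.60 to 0.63. Brca1 was at 70.6 and 66.7 CPM in shControl and 102 and 74.4 CPM in shLmna (0.35, SE 0.169, adjusted p = 0.20). Bard1, its partner in a ubiquitin ligase, had the lowest estimate of the route, with 33.1 and 28.4 CPM against 24.1 and 16.9 CPM (-0.60, adjusted p = 0.122). Brca2, a mediator of recombination, and Palb2, which joins BRCA2 to BRCA1, were at -0.02 and 0.12. Xrcc2, whose protein assists recombination, had 80 and 98 counts in shControl against 96 and 132 in shLmna (0.53, SE 0.188, adjusted p = 0.0902). Rad51c and Xrcc3, whose proteins bind each other, were at 0.63 (adjusted p = 0.226) and 0.13 (adjusted p = 0.726), and 11.4% of the 31-base words of Rad51c are shared with other genes, so its counts are less certain. Blm, a RecQ helicase, was at 0.07, and the RecQ helicase gene Wrn had only 12 and 5 counts against 5 and 8 and was not tested.

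For non-homologous end joining the 2 subunits of Ku differed in sign. Xrcc5, which encodes Ku80, was at 94.5 and 73.6 CPM in shControl and 111 and 124 CPM in shLmna, with a log2 fold change of 0.49 (SE 0.153) that narrowly missed the threshold (adjusted p = 0.0596). Without shControl 1 it was 0.68 (0.00130) and without shControl 2 it was 0.32 (0.211). Xrcc6, which encodes Ku70, was at 114 and 92.9 CPM against 64.1 and 95.1 CPM, where shLmna 2 lay within the shControl range (-0.36, adjusted p = 0.239). Prkdc, the large kinase that Ku recruits, had 51 counts or fewer in every library and a log2 fold change of 0.49 (adjusted p = 0.412). Xrcc4 and Lig4, the ligation complex, were at 0.58 (adjusted p = 0.217) and 0.03 (adjusted p = 0.950). Of the 5 genes only Xrcc5 had an unadjusted p under 0.05.

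Base excision and single-strand break repair showed the smallest differences of any route with more than 2 members, with a median size of 0.09 on the log2 scale. Among those routes it also had the highest median level, 81.0 CPM, and the lowest median SE, 0.152. Whether depth set the small sizes was not tested. Parp1, the sensor of strand breaks that makes poly(ADP-ribose), was at 196 and 179 CPM in shControl and 193 and 195 CPM in shLmna, and its 95% interval ran from -0.22 to 0.31. Apex1, the endonuclease that cuts at sites without a base, had an interval from -0.20 to 0.36. The scaffold gene Xrcc1 had the lowest estimate, -0.32 (SE 0.142, adjusted p = 0.158). Parp2 was at -0.30, the uracil glycosylase gene Ung at -0.10 and the ligase gene Lig3 at -0.05. All 6 intervals lay within a 2-fold change, and only Xrcc1 had an unadjusted p under 0.05.

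In mismatch repair, Msh6, which reads single mismatches, was at 59.8 and 53 CPM in shControl and 70.0 and 71.1 CPM in shLmna (0.33, SE 0.145, adjusted p = 0.165). Msh3, which takes its place for longer loops, had 43 and 53 counts against 21 and 39 (-0.52, adjusted p = 0.232). Pms2, the nuclease subunit that acts after recognition, was at 0.01 (adjusted p = 0.983). Msh6 was the 1 gene of these 3 with an unadjusted p under 0.05.

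Nucleotide excision repair held the third member that passed. Ercc2 (chr7:19382010-19395694, plus strand) had 288 and 408 counts in shControl against 164 and 223 in shLmna, 99.2 ± 14.2 against 62.8 ± 2.90 CPM, and the groups did not overlap. Its log2 fold change was -0.66 (SE 0.150, 95% interval -1.0 to -0.33, adjusted p = 0.0161), under the size needed for a call. The adjusted p was 0.0560 by DESeq2, 0.0933 without shLmna 1 and 0.160 without shLmna 2. The 3′ end of Ercc2 overlaps exons of Klc3 on the opposite strand, and the sources used here do not say whether the counting used strand. Ercc3, the other helicase of the same complex, was at 74.0 and 68.8 CPM against 86.2 and 67.8 CPM (0.10, adjusted p = 0.713).

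Among the damage recognition genes of that route, Ddb1, an adaptor of the CUL4 ubiquitin ligases, was at 554 and 461 CPM in shControl and 727 and 596 CPM in shLmna (0.38, SE 0.144, adjusted p = 0.106), with 0.52 (0.00627) without shControl 1 and 0.25 (0.287) without shControl 2. Its ultraviolet-specific partner Ddb2 had 33 counts or fewer in each library (0.11, adjusted p = 0.874). Xpc, which finds distorted DNA, was at -0.32 (adjusted p = 0.495). Xpa, which checks the lesion, had 132 and 151 counts in shControl against 75 and 95 in shLmna without overlap (-0.56, SE 0.185, adjusted p = 0.0752). The nuclease subunit Ercc1 was at -0.30 (adjusted p = 0.235).

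Of the Fanconi anemia members, Fanca, part of the core ligase complex, was at 82.4 and 80.9 CPM in shControl and 69.6 and 73.6 CPM in shLmna (-0.19, adjusted p = 0.389). Fancd2 and Fanci, the pair that the core complex marks with ubiquitin, were at 0.42 (adjusted p = 0.347) and 0.60 (adjusted p = 0.116). None of the 3 passed, and 1, Fanci, had an unadjusted p under 0.05.

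**Figure D2:**
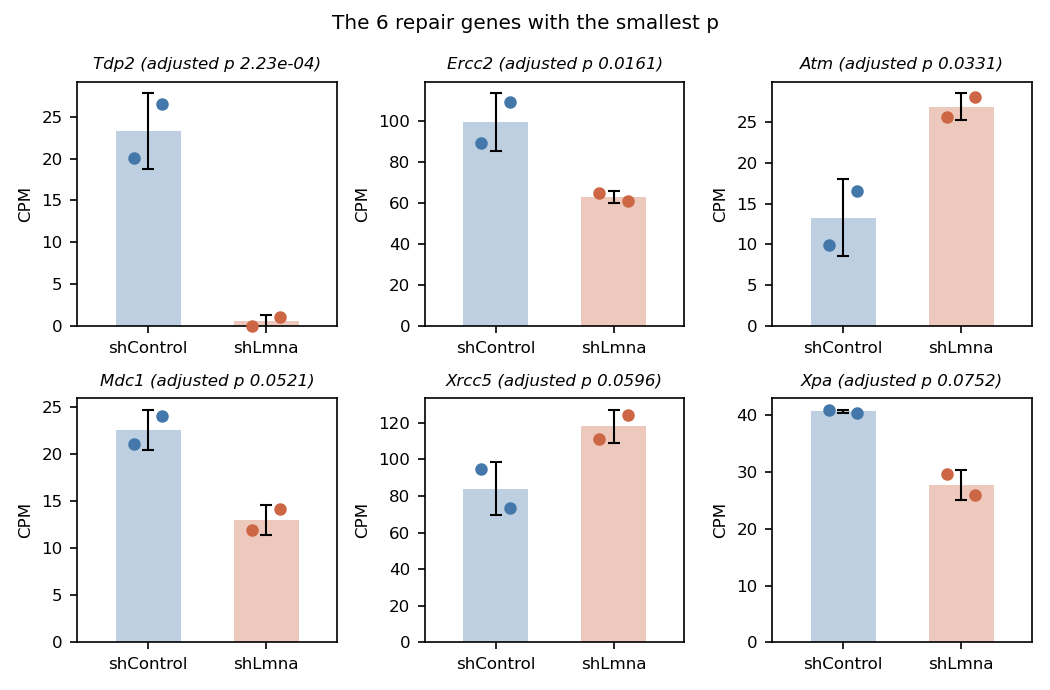
CPM (vertical axes, from 0) of the 6 repair genes with the smallest p; points are the 2 libraries of each group, bars the mean and whiskers the SD. The groups are apart in all 6 panels, and only Tdp2 goes to near 0, with 0 and 1.09 CPM in shLmna.

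Many of these proteins work as pairs, and the ratio of the counts of 2 partners within a library does not depend on how libraries are scaled. The ratio was computed for 11 pairs as a description, with no test. In 6 of the 11 the groups did not overlap, beside 60.1% of single genes that did not overlap. The ratio of Xrcc5 to Xrcc6 was 0.829 and 0.793 in shControl and 1.73 and 1.30 in shLmna. The ratio of Brca1 to Bard1 was 2.13 and 2.35 against 4.21 and 4.40. For both pairs each shLmna library lay above each shControl library. The ratio of Rad50 to Mre11a was 1.56 and 1.72 against 3.25 and 2.21, and that of Xrcc4 to Lig4 was 0.525 and 0.466 against 0.723 and 0.729. Rad51c to Xrcc3 went from 0.250 and 0.190 to 0.262 and 0.343, where the nearest libraries nearly touch. Ercc2 to Ercc3 was the only one of the 6 with lower values in shLmna, 0.752 and 0.896 against 1.21 and 1.59. The ratios of Rad50 to Nbn, Brca2 to Palb2, Xrcc1 to Lig3, Fancd2 to Fanci and Ddb1 to Ddb2 overlapped between the groups.

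**Figure D3:**
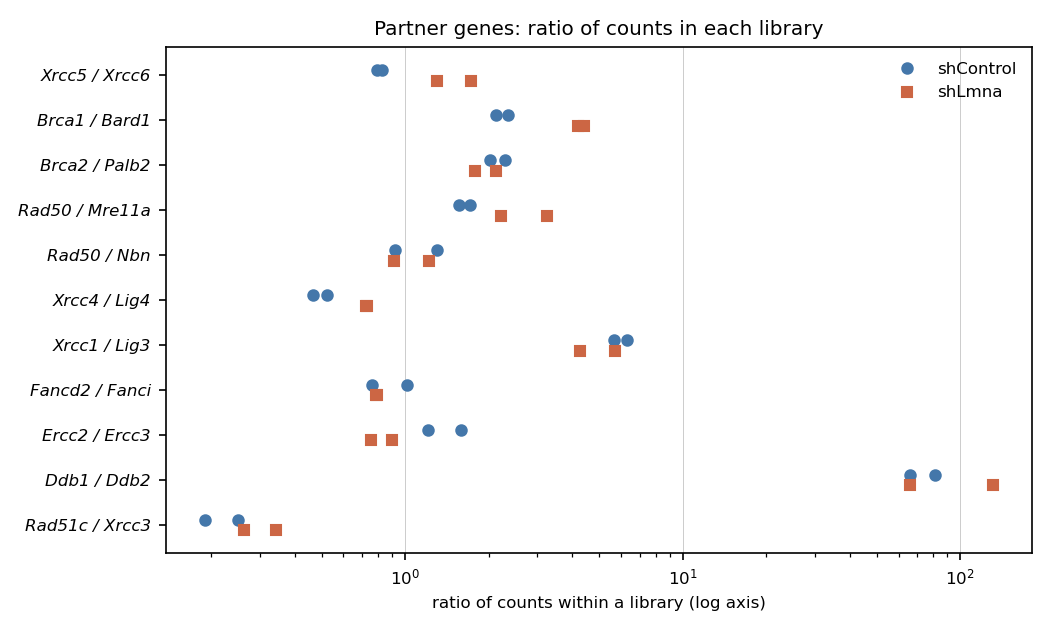
Ratio of the counts of 2 partner genes within each library (horizontal log axis), with circles for the 2 shControl and squares for the 2 shLmna libraries. Squares lie right of circles for Xrcc5/Xrcc6, Brca1/Bard1, Rad50/Mre11a, Xrcc4/Lig4 and narrowly Rad51c/Xrcc3, and left of them for Ercc2/Ercc3.

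The members act with many other repair proteins, and a list of 112 further damage repair genes was read from the same test. Of these 96 were tested, 10 passed as lower and 7 as higher (17.7%, near the 15.2% of all tested genes), and 7 were called lower and 1 higher, where 5.88% and 1.76% of all genes were. Those that passed are given below, in groups drawn up after their values were seen.

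The Fanconi anemia route had 3 further genes called lower, of 12 tested with the members included, beside 5.88% of all tested genes. Usp1, which removes the ubiquitin from FANCD2 and FANCI, had 190 and 301 counts in shControl against 9 and 21 in shLmna (-3.85, SE 0.280, adjusted p = 2.49e-05), and 15.8% of its 31-base words are shared with other genes. Fancg, a core complex subunit, was at 33.7 ± 3.44 against 11 ± 2.62 CPM (-1.60, adjusted p = 0.00218). Ube2t, the conjugating enzyme that marks FANCD2, was at 59.1 ± 1.0 against 27.9 ± 0.871 CPM (-1.09, adjusted p = 0.00202). The 3′ end of Usp1 is 34.4% G and C, while those of Fancg and Ube2t are 46.5% and 45.1%. Among all tested genes up to 42% G and C, 27.8% passed, against 10.2% from 42% to 50%. The transcripts of the enzyme that sets the FANCD2 mark and of the deubiquitinase were both lower. The estimates of Fancd2 and Fanci were above 0 and did not pass. Proteins and the mark itself were not measured here. Usp1, Fancg and Ube2t passed under all 12 alternatives.

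TFIIH, the complex that opens DNA around a bulky lesion and also starts transcription, differed among its subunits. Besides Ercc2, Ccnh, the cyclin of its kinase part, had 157 and 217 counts in shControl against 76 and 96 in shLmna (-0.93, adjusted p = 0.00853). Cdk7, the kinase itself, had 7 and 7 counts in shControl against 25 and 29 in shLmna (2.11, SE 0.413, adjusted p = 0.00825). The core subunit Gtf2h1 was at 0.48 (adjusted p = 0.0409). Of 9 tested subunits 2 passed as lower and 2 as higher, beside 9.74% and 5.48% of all tested genes, while Ercc3, Gtf2h2, Gtf2h3, Gtf2h4 and Gtf2h5 did not pass. With G and C offsets Ccnh was at -0.20 (adjusted p = 0.507) and Gtf2h1 at 0.41 (0.0791), and without shLmna 2 their adjusted p was 0.110 and 0.152. Gtf2h1 did not pass without shControl 2 (0.113) or shLmna 1 (0.268) either. The call of Cdk7 was lost by DESeq2 (adjusted p = 0.0953), without shLmna 1 (0.102) and without shLmna 2 (0.0819).

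On the ATR side, 5 of 14 tested genes passed, beside 15.2% of all tested genes, in a group whose values were known when it was drawn up. Clspn, which brings CHK1 to ATR, was called lower with 62 and 80 counts against 23 and 38 (-1.05, adjusted p = 0.0186). Topbp1, the activator of ATR, and Rad9a, of the clamp it binds, were at -0.59 (adjusted p = 0.0269) and -0.77 (adjusted p = 0.0133). Atrip, the obligate partner of ATR, was at 0.68 (adjusted p = 0.0319) and Rpa1, which coats single-stranded DNA, at 0.61 (adjusted p = 0.0132). None of the 5 passed when an shLmna library was left out. Without shLmna 1 the adjusted p was 0.113 for Clspn, 0.228 for Topbp1, 0.0612 for Rad9a, 0.132 for Atrip and 0.0959 for Rpa1. Without shLmna 2 it was 0.0932, 0.0795, 0.152, 0.189 and 0.107 in the same order. By DESeq2 only Rpa1 of the 5 passed. Without shControl 2 Atrip was at 0.0946.

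Parg, which removes poly(ADP-ribose), had 42 and 63 counts against 10 and 26 (-1.39, adjusted p = 0.0221), and its adjusted p over the alternatives reached 0.169, with values of 0.169 by DESeq2, 0.0539 without shControl 2, 0.142 without shLmna 1 and 0.0550 without shLmna 2. Pms1, a MutL relative of Pms2, had 35 and 56 against 8 and 10 counts (-2.14, adjusted p = 0.00400), and without shLmna 2 its adjusted p was 0.0676. The 3′ ends of Parg, Pms1 and Rev3l are 37.3%, 38.3% and 33.2% G and C, and that of Clspn is 44.7%. Rev3l, the catalytic subunit of the lesion bypass polymerase zeta, had 11 and 27 counts in shControl and none in shLmna. Its mean shControl level was 5.31-fold the mean level of 3 counts in the shLmna libraries, counting error aside. Without shControl 2 it was not tested. Its adjusted p was 0.00613, and 0.0734 without shLmna 2.

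The other genes of the list that passed were higher in shLmna. Cetn2, a centrin that binds XPC, had 86 and 54 counts against 94 and 148 (0.93, adjusted p = 0.0463), but 0.54 (0.138) without shControl 2. Brcc3, a deubiquitinase of the BRCA1-A complex, had 53 and 65 against 81 and 110 (0.87, adjusted p = 0.0213). Ube2b, a RAD6 ubiquitin-conjugating enzyme of lesion bypass, had 156 and 210 against 199 and 285 (0.58, adjusted p = 0.0270). None of these 3 passed by DESeq2 (adjusted p 0.153, 0.172 and 0.148), without shLmna 1 (0.139, 0.110 and 0.149) or without shLmna 2 (0.235, 0.0890 and 0.143). Cetn2 was at an adjusted p of 0.0608 with G and C offsets.

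**Figure D4:**
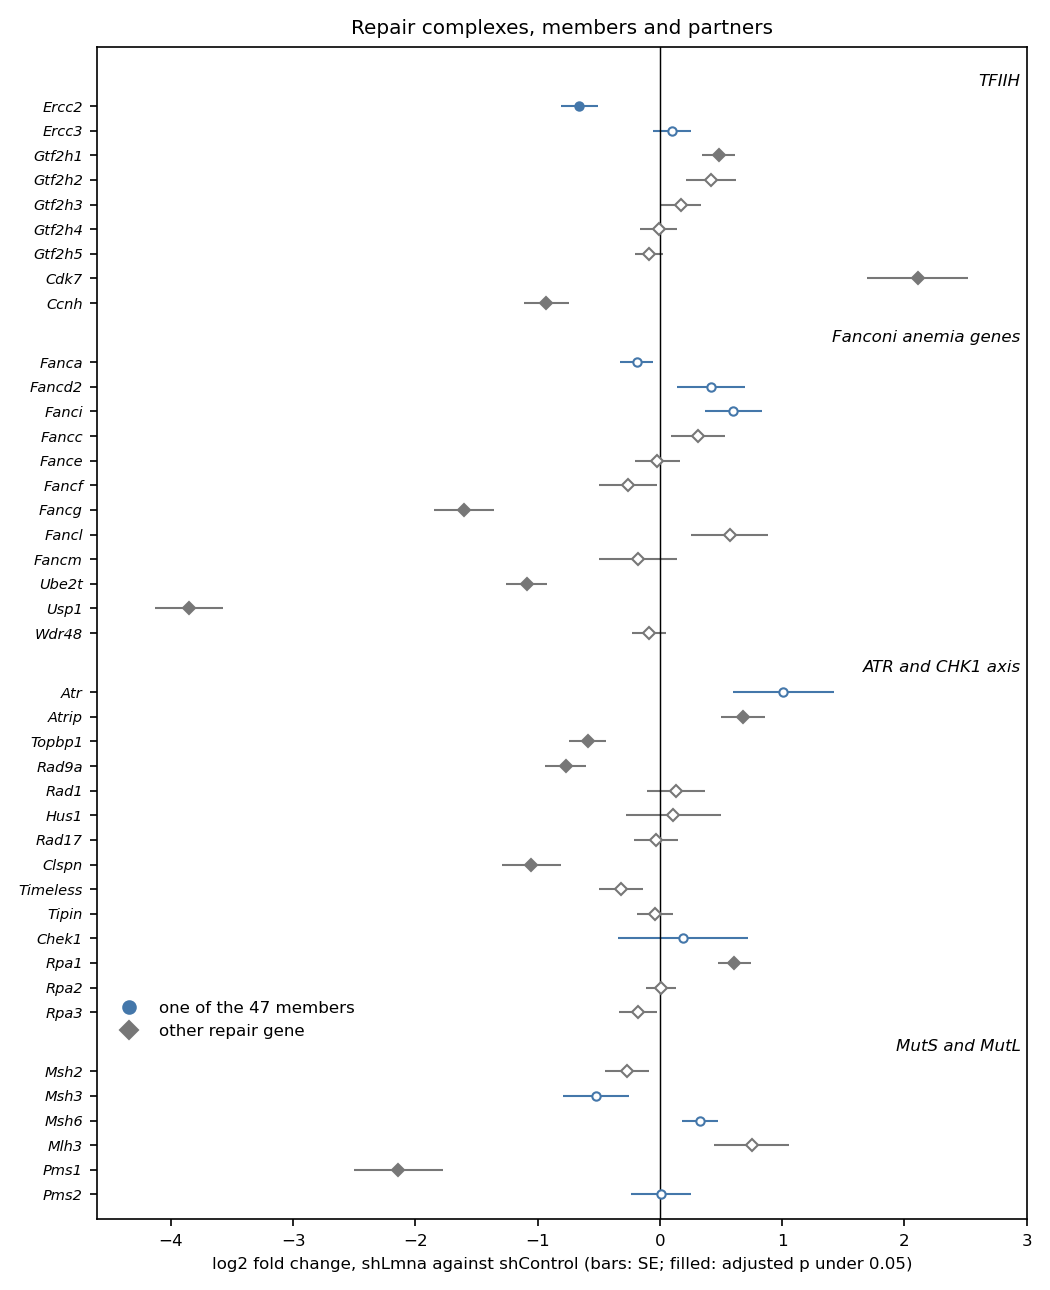
Log2 fold change (horizontal axis, bars SE) of repair complexes with the members as circles and other repair genes as diamonds, filled where the adjusted p was under 0.05. Usp1 at -3.85, Pms1 at -2.14 and Fancg at -1.60 lie far left of the members around them, and Cdk7 at 2.11 lies to the right of the other TFIIH subunits.

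Repair genes often start beside another gene that is read in the opposite direction, so that a pair shares the stretch between them. Such a neighbour, starting up to 1000 bases upstream or 200 bases inside, was annotated for 24 of the 47 members (51.1%) and for 24.6% of tested genes. There were 20 pairs with a protein-coding neighbour, in 14 of which both genes were tested. None of the 14 neighbours passed by edgeR or DESeq2 (3 had an unadjusted p under 0.05), while 4 did by limma. Over all genes 15.2% passed by edgeR, 7.71% by DESeq2 and 36.2% by limma, and 30.1% had an unadjusted p under 0.05 by edgeR. Tdp2 starts 162 bases from Acot13, a thioesterase gene. Acot13 had 391 and 518 counts in shControl against 350 and 519 in shLmna (0.11, adjusted p = 0.622), so the low counts were on the Tdp2 side of the pair. Atm starts 307 bases from Npat, which had 1 count or none in each library and gives no comparison. Chek2 and Hscb, at -0.43 and 0.46, and Ddb1 and Tkfc, at 0.38 and -0.60, had estimates of opposite sign, none of which passed.

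**Figure D5:**
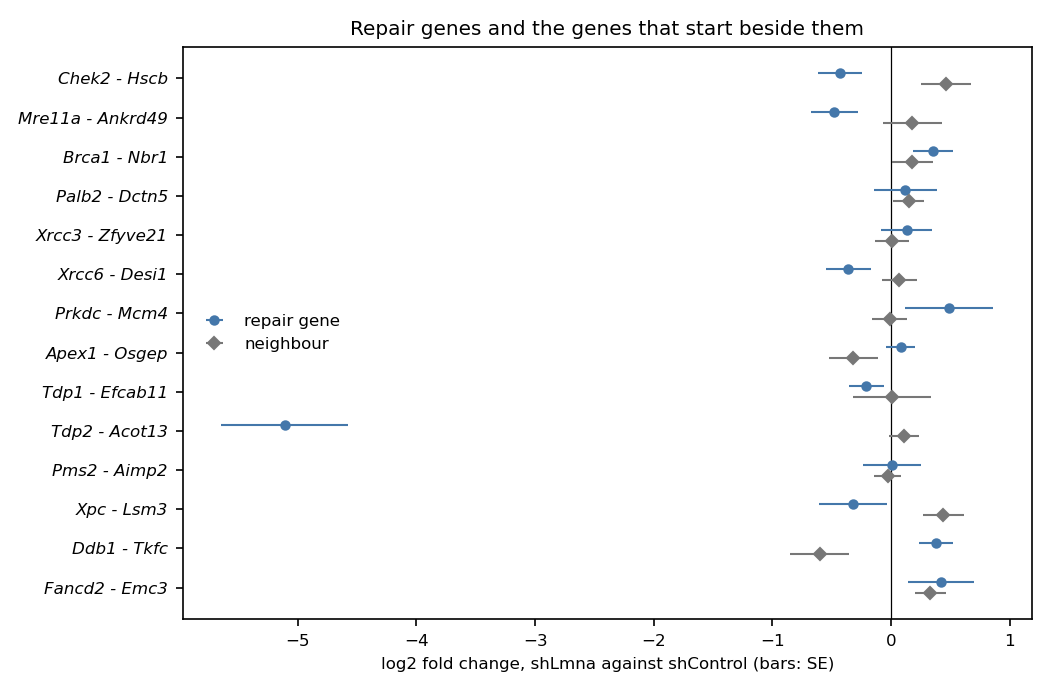
Log2 fold change (horizontal axis, bars SE) of 14 repair genes (circles) and of the gene that starts beside each on the opposite strand (diamonds). Tdp2 lies at -5.11 while its neighbour Acot13 lies at 0.11, and the other pairs stay within about 1 unit of 0.

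Genes of the DNA synthesis phase often carry a binding motif of the E2F factors before their start. The 250 bases before the start were taken from RefSeq (GRCm38.p6) for 36 of the 47 members and searched on both strands for TTTCCCGC, TTTCGCGC, TTTGCCGC and TTTGGCGC. Tdp2 was among the members without a window, so it was not searched. A match was found for 6 member genes (16.7%), against 1.86% of all 32851 promoter windows and 4.39% of the tested genes with a window. The choice to show them was made with their estimates, all below 0, known. The stretches of all 6 genes follow, with the match in capitals:

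Chek2 (chr5:110839820-110839849, plus strand): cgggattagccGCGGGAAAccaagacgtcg

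Mdc1 (chr17:35841471-35841497, plus strand): tcttcagcctgTTTCCCGCcggtagcc

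Brca2 (chr5:150522442-150522471, plus strand): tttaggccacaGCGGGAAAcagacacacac

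Bard1 (chr1:71103163-71103192, minus strand): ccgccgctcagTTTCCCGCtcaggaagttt

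Xrcc6 (chr15:82016312-82016341, plus strand): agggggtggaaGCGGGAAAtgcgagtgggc

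Msh3 (chr13:92355185-92355214, minus strand): gccgtcaagTTTGGCGCGAAAtcgcagccc

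Of these, 5 hold TTTCCCGC or its reverse complement and Msh3 holds TTTGGCGC overlapped by GCGCGAAA, the reverse complement of TTTCGCGC. The match ends 8 bases before the start in Mdc1 and 38 bases before it in Xrcc6, and lies between 144 and 201 bases away in the others. The median log2 fold change of these 6 members was -0.48, from -0.78 for Mdc1 to -0.02 for Brca2, and none passed by edgeR or DESeq2. At an unadjusted p under 0.05 there were 3, and 4 passed by limma. The 29 tested members with a window but without a match had a median of 0.07. Over all tested genes the 314 with a match had a median of -0.02, with 163 estimates lower and 151 higher, and 39 passed as lower and 18 as higher. Among the 6836 genes with a window and no match, 663 passed as lower and 368 as higher. An unadjusted p under 0.05 was found for 105 of the 314 genes and 2067 of the 6836, and for 10 of the 29 members without a match. A match is a description of the letters and not evidence of binding. Whether the motif bears on the estimates of the 6 members was not tested.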

How the data were processed

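The 47 members, the gene lists and the tests were chosen with earlier results of these data known. Per the study's methods, the authors trimmed reads with cutadapt, aligned them to mm10 with STAR 2.4.2a, marked duplicates and then counted molecular identifiers with a modified HTSeq over the last 1000 bases of RefSeq genes and 100 bases downstream. The deposited matrix held 1.08 to 1.09 times the counts recovered from the deposited normalized signal and was lower in 0 genes, and what sets the tables apart is not given in the sources used here. The deposited raw counts were fitted with edgeR 4.0.16 (quasi-likelihood, TMM, filterByExpr, group only; R 4.3.3) over 9150 genes, on all 4 libraries. Calls used the study's 3 limits. The deposited normalized signal gave whole reads for 100.0% of values within 0.1 and served as an alternative, as did the authors' batch-corrected log2 values, whose batches were not named. P-values and fold changes computed by the authors were not used.

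The text names each member that passed, the member with the highest mean CPM of each route and the called genes among 112 other repair genes, and accounts for all 47. Some genes of the repair routes are not reported here. Alternatives were RLE factors, library totals, no filter, DESeq2 1.42.0, limma 3.58.1 on the log2 values, recovered counts, replicate block, G and C offsets and leaving out each library. Gene places come from GENCODE M21 (the mm10 assembly). Annotated exons of 11 members overlap another gene on the opposite strand and of 1 on the same strand. The tests were checked on simulated counts. Totals ran from 2494880 to 3808843 counts per library, and 3 counts equal 0.803 to 1.19 CPM.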

Additional observations from a re-analysis of the deposited data

How the results depend on the processing

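Lmna and Tdp2 stayed lower and past the threshold under all 12 alternatives. Lmna ran from -2.74 to -1.54 and, with a library left out, from -2.74 to -2.45. Tdp2 was at -0.68 by limma on the authors' batch-corrected log2 values, where sizes were smaller, and between -9.21 and -4.37 with a library left out. The value of -9.21 is without shLmna 2, where the remaining shLmna library has 0 counts and a fitted fold is no bound. Of the 45 tested members, 31 kept the sign of their estimate in all 12 alternatives.

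Members passing at an adjusted p under 0.05 as lower and higher, beside 2 and 1 in the text, were 2 and 2 with library totals, 3 and 4 without a filter, 1 and 0 by DESeq2, 11 and 8 by limma, 3 and 2 with recovered counts, and 3 and 1 with G and C offsets. By limma 36.2% of all genes passed, against 15.2% in the text and 7.71% by DESeq2. With the replicate number as a block there were 4 and 4 (22.6% of all genes), and 2 members called higher. Same-numbered libraries showed no shared deviation across genes (r = 0.0134, Spearman 0.0381). With 2 libraries per group this cannot exclude pairing by number or a shared batch. With a library left out, 1 to 4 passed as lower and 0 to 2 as higher. Without shLmna 1 or without shLmna 2 only Tdp2 passed, where 5.75% and 5.28% of all genes did. Members called lower were 0 by limma and 1 to 2 with a library left out, where Trp53bp1 joined Tdp2 without shControl 1 (-1.79, adjusted p = 0.0426). Members called higher were 2 without a filter, 0 by DESeq2, limma, recovered counts and G and C offsets, and 0 to 2 with a library left out. Over all genes, 28 were called lower by limma, and 66 (DESeq2) and 2 (limma) higher, with 60 to 232 higher and 387 to 750 lower when a library was left out. The cause of these changes was not tested.

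Depth limits the members with few counts. The 95% interval of Chek1 covers a 2-fold change in both directions, and Trp53bp1 and Wrn were not tested.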

Other observations

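Of 20 genes that p53 switches on after DNA damage, 15 were tested, and 1 passed as lower and 3 as higher (26.7% in all), where 9.74% and 5.48% of all tested genes did. Cdkn1a, the cell cycle inhibitor p21, was at 301 ± 0.724 CPM in shControl and 197 ± 11.7 CPM in shLmna (-0.61, SE 0.120, adjusted p = 0.00853). Ccng1, a cyclin that is an early p53 target, was at 74.7 ± 12.8 against 115 ± 8.90 CPM (0.61, adjusted p = 0.0253). Trp53inp1 had 1 and 15 counts against 40 and 52 (2.70, adjusted p = 0.0117), and Rrm2b, the ribonucleotide reductase subunit that supplies repair, had 1 and 10 counts against 19 and 25 (2.16, adjusted p = 0.0410). Without shLmna 1 the adjusted p was 0.102 for Cdkn1a, 0.178 for Ccng1, 0.0882 for Trp53inp1 and 0.211 for Rrm2b, and without shLmna 2 it was 0.0734, 0.102, 0.121 and 0.228. The fold of 2 of these genes rested on shControl 1, which held 1 count of each. Without it Trp53inp1 was at 1.89 and Rrm2b at 1.4 (adjusted p = 0.0723), and without shControl 2 they were at 5.42 and 4.35, and neither Ccng1 (0.0648) nor Rrm2b (0.205) passed by DESeq2. Mdm2, the ligase that degrades p53, was at 0.10 (adjusted p = 0.654) and Bax, a cell death gene, at -0.12 (adjusted p = 0.595).

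Of 28 genes of the DNA synthesis and division phases, 27 were tested, and 2 passed as lower and none as higher, with a median log2 fold change of -0.04. That is 7.41%, beside 15.2% of all tested genes. At an unadjusted p under 0.05 there were 4, all lower (14.8%, beside 30.1% of all tested genes). The sliding clamp gene Pcna, which serves both replication and repair synthesis, was at 295 ± 59 against 168 ± 23.4 CPM (-0.81, adjusted p = 0.00975). Other genes share 40% of the 31-base words of the Pcna 3′ end, so its counts are less certain. Bub1, a spindle checkpoint kinase, had 62 and 88 against 0 and 3 counts. Its mean shControl level was 21.3-fold the mean level of 3 counts in the shLmna libraries, counting error aside. The 3′ end of Bub1 is 37.5% G and C. Without shLmna 1 and without shLmna 2 the adjusted p of Pcna was 0.105 and 0.0553. Bub1 passed under all 12 alternatives. By DESeq2 the same 2 genes passed, and by limma 5 lower and 2 higher. The p-values are from edgeR's quasi-likelihood test over 9150 genes.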
